A study of Homo sapiens with 7 samples.

Results

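The 34 genes described here include those of the enzymes and transporters of glycolysis and of kinases that inhibit pyruvate dehydrogenase. The others are genes that cells switch on when oxygen is low. All 34 were listed by name, without use of their measured values. The arrays had a probe set with 1 gene name for 31 of the 34. The lactate transporters SLC16A1 and SLC16A3 and the carbonic anhydrase CA9 were not analysed here. Each gene was read from its probe set of highest mean signal. The glucose transporter SLC2A3 (signals of 30.5 to 176.3) and the lipase inhibitor ANGPTL4 (49.2 to 266.8) were under the filter on dim probe sets, which left 29 of the 34 among the 13640 genes tested.

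The study compared cells that had crossed an endothelial layer in culture with cells grown out of metastases. Human lines that descend from the established prostate cancer line PC-3 supplied the RNA of all 7 arrays. They carry luciferase and were grown untreated in DMEM/F12 with serum. TEM4-18, with 2 arrays, had been selected for passage through a layer of human lung microvascular endothelial cells. The remaining 5 arrays hold 5 sublines that grew in mice after cells were injected into a vein. GS672.Ug came from the urogenital tract after injection of PC-3. The liver line GS689.Li and the line GS694.LAd of the left adrenal both came from JD549.Ki, a kidney line grown from PC-3, so they share a parent. These 3 are called the PC-3 sublines below. Injected TEM4-18 gave the TEM4-18 sublines, GS683.LALN of the left axillary lymph node and JD1203.Lu of the lung. Neither PC-3 itself nor JD549.Ki was analysed here, and no array shows the level before selection. The labels conflict for JD1203.Lu, described as grown from TEM4-18 under a source name of JD549.Ki, and for GS683.LALN, which the design text assigns to the lung. The labels do not say whether the TEM4-18 duplicates are separate cultures, and p-values measure only the spread between these arrays. They state no oxygen level.

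Glycolysis turns glucose into pyruvate, and lactate dehydrogenase turns pyruvate into lactate. When oxygen falls, the alpha subunit of hypoxia-inducible factor (HIF) is no longer hydroxylated and destroyed. HIF then binds short DNA elements with the core ACGTG or GCGTG near its target genes, which include most glycolytic genes. Many cancer cells keep glycolysis running in the presence of oxygen as well.

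These core letters were common in front of the listed genes. In the 250 bases before the start site, ACGTG or GCGTG occurred on either strand in 22 of the 32 genes with a promoter in the RefSeq table (68.8%), against 43.1% of all 27305 promoters of that table. Matches can overlap, since the palindrome CACGTG reads as ACGTG on both strands. Windows of 41 bases are shown for 6 genes that were higher in at least 1 subline of TEM4-18 and for LDHA, whose signal was nearly level. They were read 5′ to 3′ in gene orientation from the RefSeq table of GRCh38.p14, with the core, on either strand, in capitals.
HK2, chr2:74834061-74834101, plus strand: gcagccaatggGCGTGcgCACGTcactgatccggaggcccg
ADM, chr11:10304954-10304994, plus strand: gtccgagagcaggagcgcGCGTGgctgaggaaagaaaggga
ANKRD37, chr4:185396680-185396720, plus strand: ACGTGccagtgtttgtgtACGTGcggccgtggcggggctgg
BNIP3, chr10:131982034-131982074, minus strand: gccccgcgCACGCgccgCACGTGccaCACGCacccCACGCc
KDM3A, chr2:86441327-86441367, plus strand: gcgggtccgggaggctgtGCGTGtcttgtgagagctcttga
P4HA1, chr10:73096930-73096970, minus strand: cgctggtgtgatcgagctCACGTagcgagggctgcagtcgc
LDHA, chr11:18394472-18394512, plus strand: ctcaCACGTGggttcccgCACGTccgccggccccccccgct
The promoters of PFKP, PKM, PDK1 and SLC2A1, which also feature below, held neither core in these 250 bases, and that of PFKFB3 held 1 GCGTG match. The genes named here were picked, so their matches do not compare groups of genes. A match describes letters only, and the arrays measured no binding.

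Most of the pathway was level across the lines. The median listed gene spanned 1.62-fold from its lowest to its highest array on the log2(signal + 46.942) scale, and the median of all genes tested spanned 1.80-fold. A span of at least 2-fold was reached by 9 of the 29 listed genes (31%) and by 39.4% of all genes. The narrowest spans belonged to the core of the pathway: ENO1 (enolase, 1.18-fold), PGAM1 (phosphoglycerate mutase, 1.18-fold), GAPDH (1.19-fold), PGK1 (phosphoglycerate kinase, 1.20-fold) and LDHA (lactate dehydrogenase A, 1.21-fold). These were also among the brightest listed genes, with signals from 37674 (PGAM1) to 92689 (GAPDH). The part of signal level in the spans was not tested. The widest belonged to PFKFB3 (3.86-fold), PFKP (3.38-fold) and HK2 (2.94-fold), which act at the early, regulated steps. The TEM4-18 duplicates lay at most 1.27-fold apart for any listed gene.

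**Figure D1:**
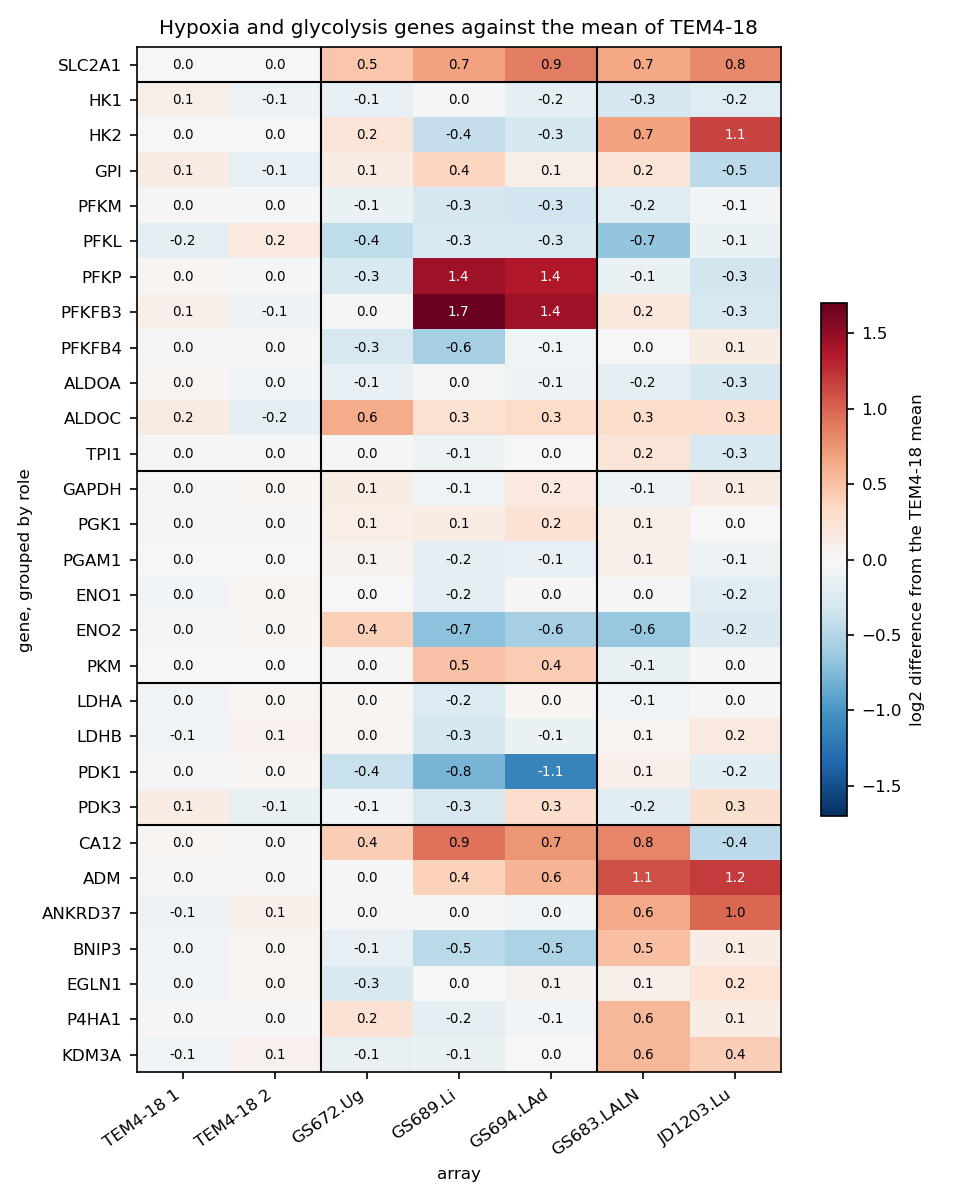
Heat map of the 29 tested genes (rows, grouped by role) on the 7 arrays (columns). Colour and number give the difference in log2(signal + 46.942) from the mean of the TEM4-18 duplicates. Red blocks appear for PFKP and PFKFB3 in GS689.Li and GS694.LAd, and for ADM, ANKRD37 and HK2 in GS683.LALN and JD1203.Lu.

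The arrays had similar ratios of 3′ to 5′ control probe sets, from 0.879 to 1.057 for GAPDH and from 1.132 to 1.297 for ACTB. The mean over the middle 96% of probe sets was 1499.8 on each. That identical value reflects how the arrays were scaled and does not measure their quality. The array medians ran from 239.1 to 259.1 in TEM4-18 and its sublines and from 283.1 to 297.2 in the PC-3 sublines, so centring on the median lowers every value of the latter. The epithelial keratins KRT8, KRT18 and KRT19 were measured on all arrays. Of 10 endothelial markers, 6, including CDH5, VWF and TEK, were under the filter. The summed signal of all 10 was 3183 and 3225 in TEM4-18, 3845 and 5897 in its sublines, and 10140 to 12566 in the other 3, of which KDR, ROBO4, ESAM and PECAM1 were the ones above the filter. The fibroblast list summed to 4396 to 31578, most of it from COL1A1 (3071 to 30752). COL1A2 was under the filter, and COL3A1, DCN and LUM reached at most 614. DCN and LUM were highest in GS683.LALN (487.3 and 614), where the sum was lowest. The part of other cell types in the results below was not tested, and in bulk RNA fewer cells of a type and less RNA per cell cannot be told apart.

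The comparison the design names first set all 5 in vivo sublines against TEM4-18. None of the 29 listed genes passed limma's threshold of a Benjamini-Hochberg adjusted p under 0.05, taken over all 13640 genes, and none of the others did (0% of all genes called). At an unadjusted p under 0.05 the counts were 1 listed gene and 1136 genes in all (8.33%). That gene was SLC2A1, the glucose transporter GLUT1. Its signals were 765.0 and 755.3 in TEM4-18. The TEM4-18 sublines GS683.LALN and JD1203.Lu had 1229 and 1375, and GS672.Ug, GS689.Li and GS694.LAd had 1067, 1245 and 1425.5. All 5 sublines were thus above both duplicates, by 0.70 ± 0.18 (SE) on the log2 scale (adjusted p = 0.382, limma). The second SLC2A1 probe set, under the filter, had 249.3 and 25.7 in the TEM4-18 duplicates and 31.6 to 102.9 in the sublines, and gave no order. Of the 29 listed genes 16 were higher and 13 lower, with a median log2 difference of 0.02 against 0.03 for all genes. The next in size were ADM (0.65 ± 0.32), PFKFB3 (0.60 ± 0.52), CA12 (0.49 ± 0.34), PDK1 (-0.48 ± 0.30) and PFKP (0.42 ± 0.51), whose standard errors were wide because the sublines differed from each other.

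The sublines grown from TEM4-18 were then compared with TEM4-18. No listed gene was called by limma, and 10 genes in all were (0.0733%). At an unadjusted p under 0.05 the counts were 5 listed genes and 1326 in all (9.72%). The hypoxia-responsive genes outside glycolysis had positive differences in 7 of 7 tested, where 51.7% of all genes were higher. Their median was 0.35 against 0.01 for all genes. This held with the arrays centred on the median (0.33) and after quantile normalization (0.33). By subline the median was 0.565 in GS683.LALN, with 7 of 7 positive, and 0.228 in JD1203.Lu, with 6 of 7, where CA12 was at -0.445. The list was chosen with earlier results of these data known, and these values are a description.

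ADM encodes adrenomedullin, a secreted vasodilator peptide. Its signal was 855.1 and 879.3 in TEM4-18, 1912.5 in GS683.LALN and 2032 in JD1203.Lu, and 853.5, 1154 and 1320 in GS672.Ug, GS689.Li and GS694.LAd. Both TEM4-18 sublines were more than 2-fold above TEM4-18, and above each of the other 3 sublines. The log2 difference from TEM4-18 was 1.14 ± 0.24 (adjusted p = 0.188, limma).

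ANKRD37, an ankyrin repeat protein and a known HIF target, had signals of 813.1 and 921.9 in TEM4-18, 1374 in GS683.LALN and 1742 in JD1203.Lu. In the 3 other sublines it stayed within 839.5 to 877.1, inside the span of the TEM4-18 duplicates. The log2 difference of the TEM4-18 sublines from TEM4-18 was 0.80 ± 0.22 (adjusted p = 0.300). KDM3A, a histone demethylase, was also highest in the TEM4-18 sublines, with 5903 and 5335 there, 3790 and 4170.5 in TEM4-18 and 3624 to 3943 elsewhere (0.49 ± 0.16, adjusted p = 0.388). Neither gene passed in this comparison.

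HK2, hexokinase 2, commits glucose to the cell by phosphorylation. Its signal was 2751 and 2722 in TEM4-18, and 4422 and 6127 in GS683.LALN and JD1203.Lu. In GS672.Ug, GS689.Li and GS694.LAd it was 3200, 2051 and 2226. The TEM4-18 sublines stood above all other arrays, by 0.92 ± 0.25 over TEM4-18 (adjusted p = 0.300). The other HK2 probe sets, both of lower signal, gave means of -0.18 and -0.53 for these sublines against TEM4-18. In JD1203.Lu the former was 863.3, above both duplicates (838.3 and 845.8), and the latter was 570.7, between them (930.2 and 566.2). In GS683.LALN they were 626.1 and 419.4, each below both duplicates. HK1, the hexokinase of most tissues, moved little (12942 to 16958).

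P4HA1, a collagen prolyl hydroxylase subunit, reached 19741 in GS683.LALN and 14645 in JD1203.Lu, against 13518 and 13199 in TEM4-18 (0.35 ± 0.19). BNIP3, a mitophagy receptor, reached 15469 and 11857 in these sublines, against 10527 and 11144 in TEM4-18 (0.32 ± 0.19). EGLN1, the main hydroxylase that marks HIF for destruction, ranged only from 3199 to 4502. Among the genes of the pathway with the largest differences here, ENO2, the neuronal enolase, had a negative one (-0.45 ± 0.35, adjusted p = 0.713).

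**Figure D2:**
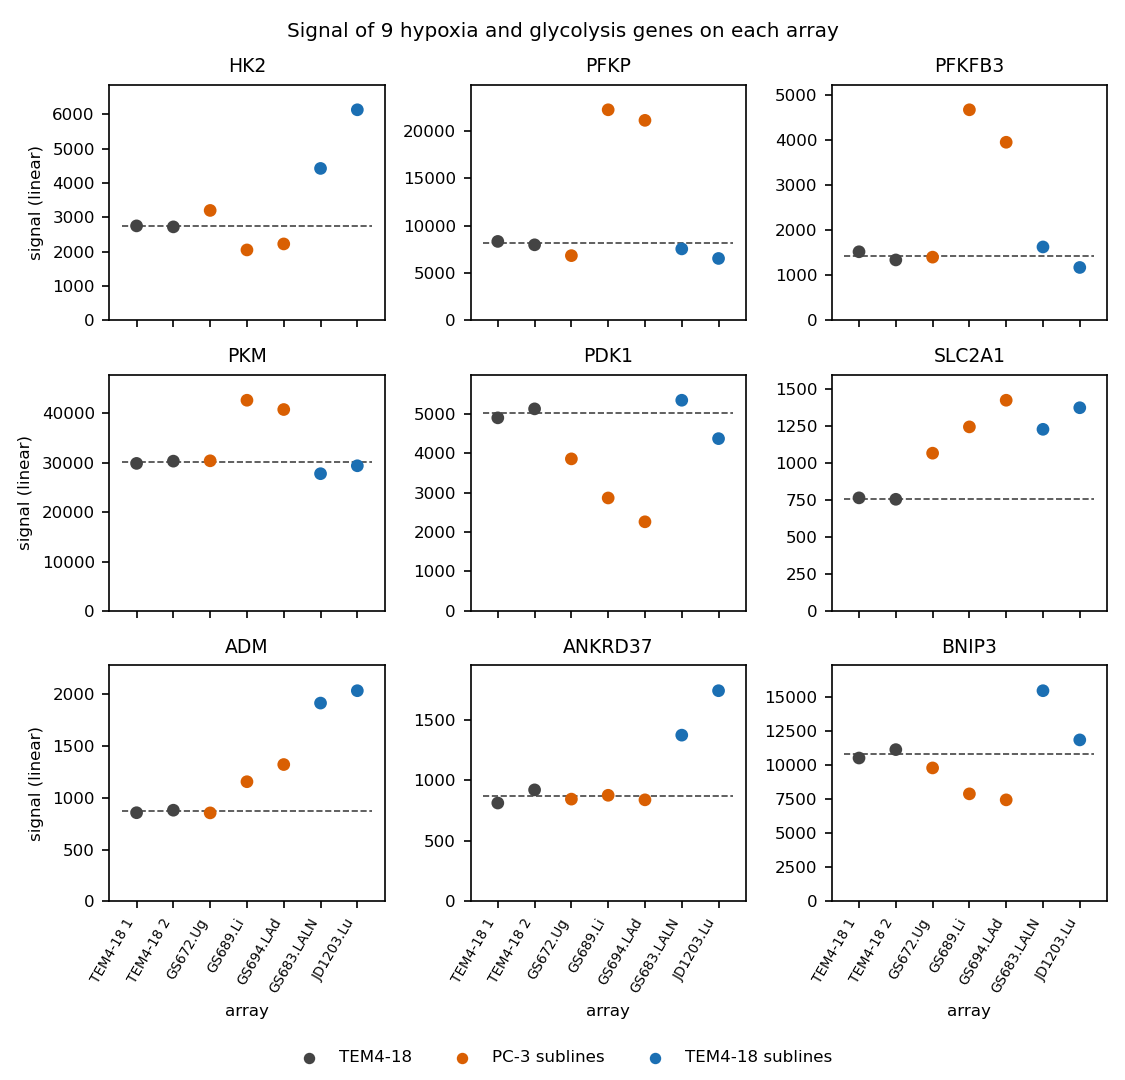
Linear signal on each of the 7 arrays for HK2, PFKP, PFKFB3, PKM, PDK1, SLC2A1, ADM, ANKRD37 and BNIP3, each panel with its own axis from 0. Points are single arrays, coloured by group, and the dashed line is the mean of the TEM4-18 duplicates. PFKP, PFKFB3 and PKM are high only on the GS689.Li and GS694.LAd arrays, and HK2, ADM and ANKRD37 are highest in GS683.LALN and JD1203.Lu.

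The sublines grown from PC-3 without passing through TEM4-18 had 461 called genes against TEM4-18 (3.38%), none of them a listed gene. At an unadjusted p under 0.05, 3 listed genes and 2422 in all were counted. PDK1 (-0.77 ± 0.22, adjusted p = 0.112), SLC2A1 (0.67 ± 0.20, 0.121) and PFKFB3 (1.03 ± 0.44, 0.263) were these 3. PFKP (0.85 ± 0.43, 0.346), CA12 (0.70 ± 0.33, 0.315) and the brain aldolase ALDOC (0.40 ± 0.20, 0.349) completed the largest differences. The 3 sublines of this group were not alike. PFKFB3 and PFKP were near TEM4-18 in GS672.Ug and far above it in GS689.Li and GS694.LAd, which widened the error of the group.

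Each subline was therefore also set against TEM4-18 alone, with no test, since each has 1 array. The mark was a difference of 2-fold or more from the TEM4-18 mean, with the subline beyond both duplicates. GS672.Ug had 0 of the 29 listed genes past this mark, where 8.37% of all genes were. GS683.LALN had 1, ADM at 2.14-fold (5.71% of all genes). JD1203.Lu had 2, ADM at 2.27-fold and HK2 at 2.22-fold (8.75%). GS689.Li had 2, PFKFB3 at 3.19-fold and PFKP at 2.71-fold (10.2%). GS694.LAd had 3, PFKFB3 at 2.71-fold, PFKP at 2.58-fold and PDK1 at 0.456 of TEM4-18 (10.6%).

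After these values were seen, GS689.Li and GS694.LAd were fitted as a group of their own, as sublines of JD549.Ki, with GS672.Ug apart. Against TEM4-18, 3 listed genes rose and 1 fell, where 6.96% of all genes were called. This comparison and that of the TEM4-18 sublines use the same TEM4-18 arrays.

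PFKP is the platelet isoform of phosphofructokinase, the enzyme of the committed step of glycolysis. Its signal was 22221 in GS689.Li and 21107 in GS694.LAd, and between 6540 and 8337 on the other 5 arrays. On this probe set the groups did not overlap, and PFKP rose by 1.40 ± 0.13 on the log2 scale, or 2.65-fold (adjusted p = 0.0016, limma). Its second probe set, of far lower signal, gave 0.78, and there the groups overlapped. It read 202 and 477.1 in GS689.Li and GS694.LAd, and 475.6 in GS683.LALN. With the mean over probe sets PFKP gave 1.09 (adjusted p = 0.0469). The liver and muscle isoforms, PFKL (1753 to 3194) and PFKM (6527 to 8335), lay lower in this pair than in TEM4-18 and did not pass.

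PFKFB3 makes fructose-2,6-bisphosphate, the strongest activator of phosphofructokinase. Its signal was 4673 and 3952 in GS689.Li and GS694.LAd, against 1524 and 1342 in TEM4-18, 1404 in GS672.Ug, 1630.5 in GS683.LALN and 1175.5 in JD1203.Lu. It rose by 1.56 ± 0.21, or 2.94-fold (adjusted p = 0.00647). PFKFB4, a second enzyme of this family, ranged from 1204 to 1980 over the 7 arrays and did not pass (-0.32).

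PKM, pyruvate kinase, makes pyruvate at the end of the pathway. Its signal was 42644 and 40767 in the JD549.Ki sublines and 27778 to 30387 on the other 5 arrays. It rose by 0.47 ± 0.10, or 1.39-fold (adjusted p = 0.0329), and its second probe set gave 0.62. The call ended after centring on the median (0.26, adjusted p = 0.151), with no filter (0.0625) and with the mean over probe sets (0.55, 0.116).

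PDK1 is a kinase that inhibits pyruvate dehydrogenase. Its signal was 3853, 2862 and 2258.5 in GS672.Ug, GS689.Li and GS694.LAd, against 4893 and 5120.2 in TEM4-18, 5338.5 in GS683.LALN and 4366 in JD1203.Lu. On this probe set the 3 sublines of PC-3 were the lowest arrays. On a dimmer one GS672.Ug was the highest array (1669) and JD1203.Lu the lowest (716.9). In the JD549.Ki pair PDK1 fell by 0.96 ± 0.18, or to 0.513 of TEM4-18 (adjusted p = 0.0191). Its 2 dimmer probe sets gave -0.23 and -0.39, and with the mean over probe sets the call ended (-0.53, adjusted p = 0.181). PDK3, of the same family, ranged from 1955 to 2913.5 with no order by group.

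Next in size were CA12, a membrane carbonic anhydrase (0.84 ± 0.36, adjusted p = 0.212), SLC2A1 (0.77 ± 0.20, 0.0569) and ENO2 (-0.63 ± 0.20, 0.109). CA12 was 4435 and 3899 in the JD549.Ki sublines and 4132 in GS683.LALN, against 2364 and 2253 in TEM4-18, and lowest in JD1203.Lu (1682.5). ENO2 was lowest in GS689.Li (1132.5) and highest in GS672.Ug (2487).

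Leaving out either TEM4-18 duplicate, GS689.Li or GS694.LAd ended the calls of PFKFB3 (adjusted p from 0.0642 to 0.0952), PDK1 (0.0764 to 0.187) and PKM (0.158 to 0.287), each with 1 array fewer in a small fit. PFKP stayed called in each of these fits, read from its brighter probe set and in a group formed after its values were seen.

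**Figure D3:**
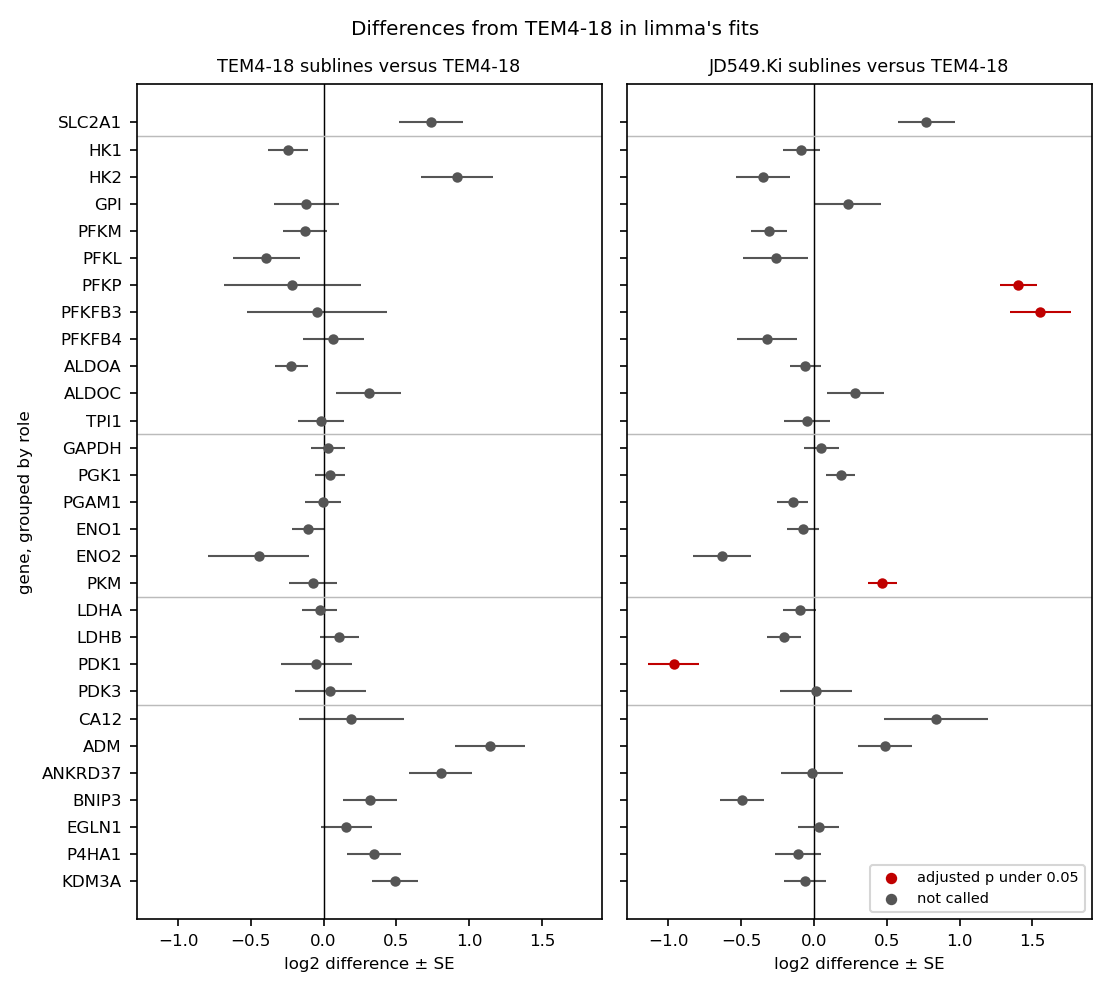
Log2 differences from TEM4-18 with limma's standard errors for the 29 tested genes, for the 2 sublines of TEM4-18 (left) and the 2 sublines of JD549.Ki (right). Red marks an adjusted p under 0.05, which PFKP, PFKFB3, PKM and PDK1 reached in the right panel and no gene in the left. Both panels use the same TEM4-18 arrays.

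The lines of the 2 origins were also compared directly. Between the 3 PC-3 sublines and the 2 TEM4-18 sublines 513 genes were called (3.76%), among them 1 listed gene. HK2 was lower in the PC-3 sublines by -1.08 ± 0.23, or 0.474 of its level in the TEM4-18 sublines (adjusted p = 0.037, limma), with no overlap between the groups. The call rests on 1 probe set. The other HK2 probe sets gave -0.43 and 0.29, and the mean over probe sets gave -0.41 (adjusted p = 0.336). The adjusted p also rose to between 0.0914 and 0.136 without either TEM4-18 duplicate, GS689.Li, GS694.LAd or JD1203.Lu, and to 0.0501 with no filter.

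In the same comparison 6 of the 7 hypoxia-responsive genes outside glycolysis were lower in the PC-3 sublines, where 55.1% of all genes were higher. Their median was -0.58 against 0.05 for all genes. With centring on the median it was -0.75, against -0.13 for all genes. After quantile normalization it was -0.58, against 0.01 for all genes. ANKRD37 (-0.82 ± 0.20, adjusted p = 0.0582), BNIP3 (-0.70 ± 0.17, 0.0596), KDM3A (-0.58 ± 0.15, 0.065) and ADM (-0.82 ± 0.22, 0.0781) each missed the threshold narrowly. All 4 passed with the arrays centred on the median, which lowers every value of the PC-3 sublines. After quantile normalization ANKRD37 passed (adjusted p = 0.0418, limma), and BNIP3, KDM3A and ADM did not. CA12 was the exception among the 7, higher in the PC-3 sublines by 0.505. Without GS683.LALN it was higher by 1.14, and 6 of 7 were lower, with a median of -0.51. Without JD1203.Lu 7 of 7 were lower, with a median of -0.65. PFKFB3 (1.07 ± 0.44, 0.218), PFKP (1.06 ± 0.43, 0.215) and PDK1 (-0.72 ± 0.22, 0.121) were large but varied with GS672.Ug. The dimmer PDK1 probe sets gave 0.415 and -0.39, so the sign depended on the probe set. The group of lower glycolysis, from GAPDH to PKM, changed direction with the scaling, with 5 of 6 genes higher in the PC-3 sublines as deposited and 1 of 6 after centring on the median.

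With GS672.Ug apart, the JD549.Ki sublines differed from the TEM4-18 sublines in 6 listed genes, where 8.26% of all genes were called. PFKP (1.62 ± 0.13, adjusted p = 0.000707), PFKFB3 (1.60 ± 0.21, 0.00533) and PKM (0.55 ± 0.10, 0.0192) rose. HK2 (-1.27 ± 0.19, 0.00832), PDK1 (-0.91 ± 0.18, 0.0221) and BNIP3 (-0.82 ± 0.15, 0.0199) fell. BNIP3 was 7895.5 and 7454.5 in the JD549.Ki sublines, below every other array, and its second probe set gave values in the same order of groups. ANKRD37 stood at -0.82 ± 0.21 (adjusted p = 0.0561). Without GS689.Li or GS694.LAd, all but PFKP lost the call (adjusted p from 0.0552 to 0.155), as did PKM, PDK1 and BNIP3 without either TEM4-18 duplicate (0.0695 to 0.0819). With the mean over probe sets the calls of PFKP (0.80, adjusted p = 0.0976), HK2 (-0.54, 0.16), PDK1 (-0.39, 0.291) and PKM (0.53, 0.11) ended, and centring on the median ended that of PKM (0.35, 0.0655).

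Other genes of the HIF pathway were read from lists of regulators and targets. Of 9 regulators 5 were tested, and 1, HIF1A, passed. In the PC-3 sublines 3.38% of all genes were called against TEM4-18 and 3.76% against the TEM4-18 sublines. HIF1A encodes the oxygen-regulated alpha subunit itself. Its signal was 49468 and 53422 in TEM4-18, 52939 and 53019 in the TEM4-18 sublines, and 37228, 31132 and 32527 in GS672.Ug, GS689.Li and GS694.LAd. The PC-3 sublines lay below every array of the TEM4-18 lineage. HIF1A fell by 0.62 ± 0.11 against TEM4-18 (adjusted p = 0.021) and by 0.66 ± 0.11 against the TEM4-18 sublines (0.0156). The former p rose to between 0.0803 and 0.261, and the latter to between 0.0549 and 0.074, without either TEM4-18 duplicate, GS689.Li or GS694.LAd. EPAS1, the second alpha subunit, showed no such order (-0.21 ± 0.43 against TEM4-18, adjusted p = 0.853).

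Of 35 further HIF targets 30 were tested. In the comparison of all in vivo sublines with TEM4-18, 19 were higher and none was called, where 53.9% of all genes were higher. The largest were STC2 (1.41 ± 0.30, adjusted p = 0.248), DDIT4 (1.35 ± 0.36, 0.382) and PPP1R3C (1.09 ± 0.40, 0.531). In the TEM4-18 sublines 23 were higher than in TEM4-18, none called, with a median of 0.24, where 51.7% of all genes were higher. In the PC-3 sublines against TEM4-18, 16 were higher and 14 lower, where 55.4% of all genes were higher. Of the 30, 2 passed, both lower, where 3.38% of all genes were called. VEGFA, the growth factor of blood vessels, was 2795 and 2680 in TEM4-18 and 1113, 1229 and 1290 in GS672.Ug, GS689.Li and GS694.LAd (-1.15 ± 0.18, adjusted p = 0.0129). It was 2910 and 3824.5 in the TEM4-18 sublines, and its 3 other probe sets had the same sign with smaller differences. With the mean over probe sets VEGFA gave -0.67 (adjusted p = 0.118). The repressor BHLHE41 was 9569 and 8038 in TEM4-18 and 5090.1, 3470.1 and 3605 in the PC-3 sublines (-1.13 ± 0.19, 0.0168). Without either TEM4-18 duplicate or GS689.Li both calls ended (adjusted p from 0.0555 to 0.224), and that of BHLHE41 also without GS694.LAd (0.076).

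Against the TEM4-18 sublines 4 of the 30 targets passed, where 3.76% of all genes were called. All 4 were lower in the PC-3 sublines: VEGFA (-1.43 ± 0.18, adjusted p = 0.00439), BHLHE41 (-1.65 ± 0.19, 0.00272), ERO1A (-1.64 ± 0.20, 0.00401) and TMEM45A (-0.73 ± 0.17, 0.0494). ERO1A, an oxidase of the endoplasmic reticulum, was 27859 and 19357 in GS683.LALN and JD1203.Lu, 13524 and 13878 in TEM4-18, and 5927 to 8827 in the PC-3 sublines. All 3 of its probe sets had this order of groups for the mean. TMEM45A, a transmembrane protein, was 14453 and 11444 in the TEM4-18 sublines and 5748 to 8566 on the other arrays, and its call ended without either TEM4-18 duplicate, GS683.LALN, GS689.Li or GS694.LAd (0.107 to 0.131). With the mean over probe sets VEGFA gave -0.86 (0.0508), and its call ended. Over all 30 targets 14 were higher and 16 lower, with a median of -0.09, where 55.1% of all genes were higher.

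The JD549.Ki pair had changes in both directions among these targets against TEM4-18, with 3 rising and 4 falling of 30, where 6.96% of all genes were called. P4HA2, a collagen prolyl hydroxylase (1.05 ± 0.16, adjusted p = 0.00972), DDIT4, an inhibitor of mTOR signalling (1.57 ± 0.34, 0.0372) and the glycoprotein STC2 (1.62 ± 0.35, 0.0342) rose. DDIT4 and STC2 were not particular to this pair, with 1.52 ± 0.43 and 1.35 ± 0.37 in the TEM4-18 sublines against TEM4-18, not called. Their signals in the TEM4-18 duplicates were low and apart, 174.8 and 324.1 for DDIT4 and 205 and 130.6 for STC2. The mitochondrial adenylate kinase AK4 fell by 2.92 ± 0.32 (0.003), from 1751 and 2337 in TEM4-18 to 238.2 and 216.2, while GS672.Ug and GS683.LALN held 3367.5 and 3627.5. All 4 of its probe sets fell in this pair. VEGFA, BHLHE41 and ERO1A were the other 3. Of these 7, P4HA2, DDIT4, STC2, VEGFA and ERO1A lost the call without either TEM4-18 duplicate, GS689.Li or GS694.LAd (adjusted p from 0.0783 to 0.263). With the mean over probe sets P4HA2 gave 0.60 (0.155) and VEGFA -0.57 (0.135), and with no filter DDIT4 (0.0731) and STC2 (0.0701) ended. AK4 lost it without either subline of the pair (0.0506 and 0.0528), and BHLHE41 without the first duplicate (0.0549) or GS689.Li (0.0506). Against the TEM4-18 sublines, where 8.26% of all genes were called, 1 target, P4HA2 (0.85 ± 0.16, 0.0197), was higher in this pair. Another 6 were lower: VEGFA, BHLHE41, ERO1A, AK4, TMEM45A and the mitophagy receptor BNIP3L (-0.48 ± 0.12, 0.0477). With the mean over probe sets 3 of these calls ended, those of P4HA2 (0.36, 0.349), VEGFA (-0.76, 0.055) and BNIP3L (-0.43, 0.0618). That of BNIP3L also ended with no offset (0.0501), no filter (0.055) and quantile normalization (0.0598). TMEM45A lost its call with no filter (0.055) and quantile normalization (0.0539). Without GS689.Li or GS694.LAd the calls of P4HA2, VEGFA, TMEM45A and BNIP3L ended. Without either TEM4-18 duplicate those of P4HA2, TMEM45A and BNIP3L ended.

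**Figure D4:**
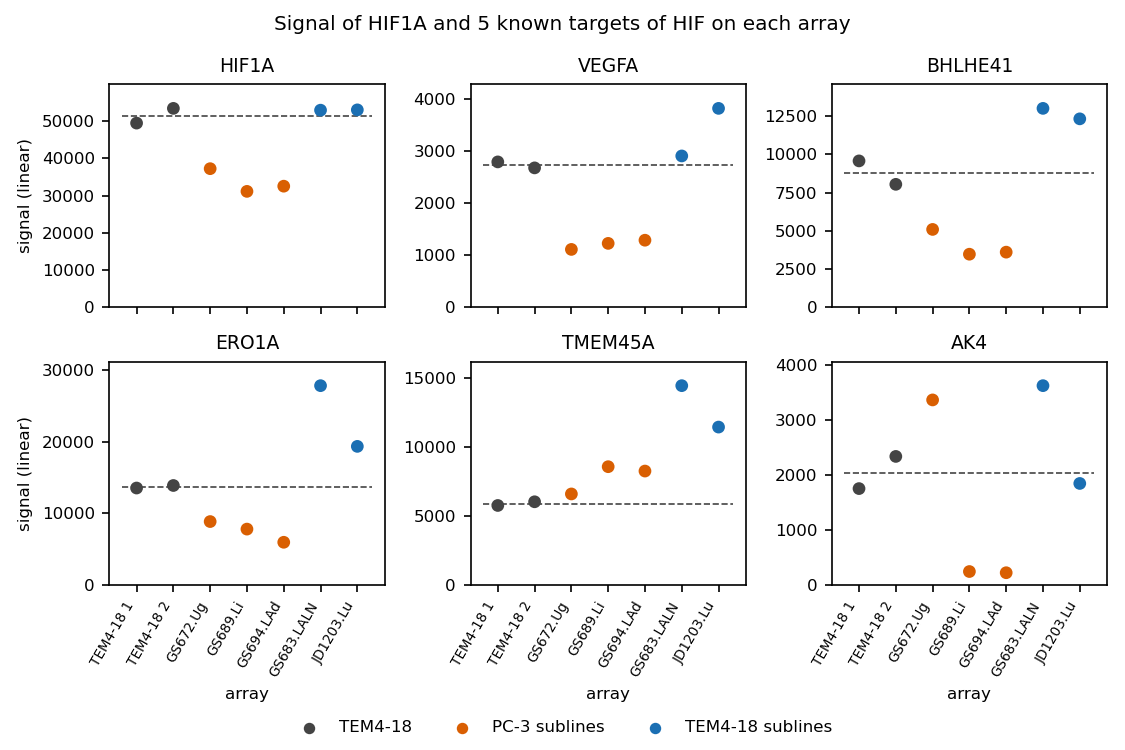
Linear signal on each of the 7 arrays for HIF1A and the HIF targets VEGFA, BHLHE41, ERO1A, TMEM45A and AK4, each panel with its own axis from 0. Points are single arrays coloured by group, and the dashed line is the mean of the TEM4-18 duplicates. HIF1A, VEGFA, BHLHE41 and ERO1A lie below the line in all 3 PC-3 sublines, and AK4 is lowest in GS689.Li and GS694.LAd.

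The remaining lists held few calls. In the JD549.Ki pair 6.96% of all genes were called against TEM4-18 and 8.26% against the TEM4-18 sublines. Among 20 tested isoenzymes, transporters and regulators of glycolysis, the transporter SLC2A10 rose in this pair against TEM4-18 (1.25 ± 0.23, adjusted p = 0.0201). BPGM, which makes 2,3-bisphosphoglycerate, was lower there than in the TEM4-18 sublines (-0.80 ± 0.19, 0.0461). Among 11 tested genes of pyruvate entry, PC, pyruvate carboxylase, was higher in the PC-3 sublines than in the TEM4-18 sublines (1.22 ± 0.26, 0.0386). In that comparison 3.76% of all genes were called. Among 6 tested genes of the pentose phosphate pathway, RPIA, ribose-5-phosphate isomerase, was lower in the JD549.Ki pair than in the TEM4-18 sublines (-0.86 ± 0.19, 0.0344). Each of these 4 calls ended without either TEM4-18 duplicate, GS689.Li or GS694.LAd, with adjusted p from 0.0959 to 0.195 for SLC2A10, 0.123 to 0.219 for BPGM, 0.0779 to 0.142 for PC and 0.0655 to 0.185 for RPIA, and that of PC also without GS683.LALN (0.0987).

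The position of the genes added a pattern to PFKP and PFKFB3. In the RefSeq gene order of GRCh38.p14 both lie on chromosome 10, with 21 tested genes between them. Of these 21, 19 were higher in the JD549.Ki pair than in TEM4-18, 13 were called higher and 0 lower (6.96% of all genes called), and the median difference was 1.26. The median over the same 21 genes was -0.08 in GS672.Ug, 0.01 in GS683.LALN and 0.12 in JD1203.Lu. The mitochondrial peptidase PITRM1 (1.38 ± 0.11), the Rab regulator GDI2 (1.26 ± 0.12) and the splicing factor RBM17 (1.19 ± 0.14) rose by amounts near those of PFKP (1.40) and PFKFB3 (1.56). The 9 tested genes before PFKP had a median of 0.41, with 1 called higher, IDI1 (0.92 ± 0.14, adjusted p = 0.0106). LARP4B (0.79) and WDR37 (0.66) lay above TEM4-18 there too without passing. In the 20 tested genes that follow PFKFB3, 0 were called higher and the median was -0.12. The aldo-keto reductases AKR1C1, AKR1C2 and AKR1C3 inside the run had larger differences (3.50, 4.49 and 5.20) and were also above TEM4-18 in GS672.Ug (1.78, 2.02 and 3.997) and JD1203.Lu (1.26, 1.64 and 2.93).

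**Figure D5:**
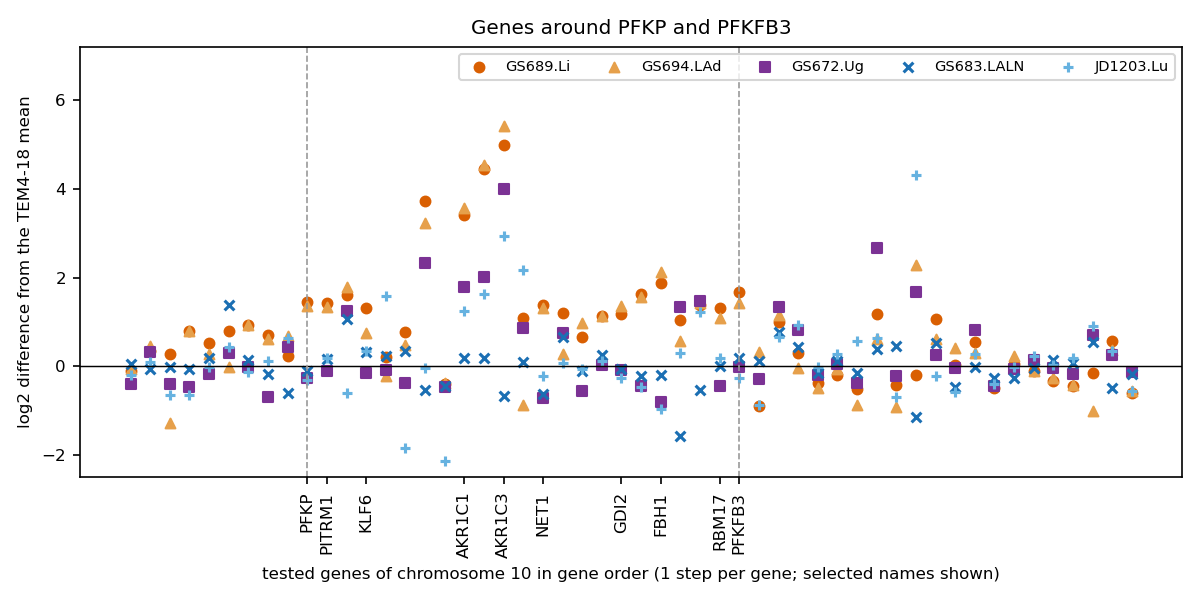
Tested genes of chromosome 10 in gene order, 1 step per gene, from 9 genes before PFKP to 20 after PFKFB3 (dashed lines). The vertical axis is the difference in log2(signal + 46.942) from the TEM4-18 mean in each of the 5 sublines. GS689.Li and GS694.LAd lie above 0 for most genes between the lines, where the median of the other sublines is -0.08 to 0.12.

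HIF1A had a like setting in the other direction. It lies on chromosome 14, and of its 20 nearest tested neighbours 12 were called lower in the PC-3 sublines against TEM4-18 and 0 higher, where 3.38% of all genes were called. Their median difference was -1.28 in the PC-3 sublines, -0.72 in GS672.Ug, 0.32 in GS683.LALN and 0.18 in JD1203.Lu. The neighbours of HK2, PDK1, BNIP3 and KDM3A had medians between -0.26 and 0.05 in the JD549.Ki pair, and those of PKM 0.26. Whether the copy number of these stretches differed was not measured on these arrays, and the part of position in the differences of PFKP, PFKFB3 and HIF1A was not tested.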

How the data were processed

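RNA was hybridised to 1-colour Affymetrix arrays, 7 in all. The authors deposited linear MAS5 signal intensity values, per the submitters' processing notes, which give no version. Of 54675 probe sets, 41097 had 1 gene symbol, 1801 several and 11777 none, and 62 controls were left out. Intensities were analysed as log2(signal + 46.942), the offset being the 20th percentile of all values. Probe sets with a mean under the 40th percentile (160.7) were dropped, and the probe set of highest mean stood for each gene. limma 3.58.1 in R 4.3.3 (lmFit, eBayes with trend) tested 13640 genes in models of 2 or 3 groups, 2-sided, with Benjamini-Hochberg adjustment. The model of 4 groups was chosen after seeing the data. Genes, lists and tests were chosen with earlier results of these data known. Named were all listed genes by level, those that passed, the 6 largest differences per comparison and list genes that passed. HIF1A neighbours and the chromosome 10 run were chosen after their values were seen. The fit was tested on simulated data. The number of arrays limits the precision. Offsets, filters, scalings, probe set rules and arrays left out were tried as alternatives. Symbols, gene order and promoters came from RefSeq.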

Additional observations from a re-analysis of the deposited data

Results flagged for a closer look

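The signal of the aldolase ALDOC in GS672.Ug, 1574, stood apart from the other 4 in vivo sublines, of which the next was 1262, a gap of 0.85 of the range. The mark was a gap over 0.71 of the range, which about 1 group in 20 would pass by chance. All 29 tested genes of the list were screened, at both ends of the range. The HK2 difference from TEM4-18 in the PC-3 sublines minus that in the TEM4-18 sublines was -1.076 on the log2 scale and passed limma's test of the difference (adjusted p = 0.037), from 1 of its 3 probe sets.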

How the results depend on the processing

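In the comparisons where it passed, was among the 6 largest or had an unadjusted p under 0.05, no named gene changed direction under an alternative. Smaller differences did: in PC-3 against TEM4-18 sublines 13 of the 29 listed genes were higher as deposited and 5 after median centring. Also, the median over the listed genes, close to 0 in each comparison as deposited, changed sign under some. Of 1266 alternative values of named genes, 1015 kept their side of the threshold, 209 lost it and 42 gained it. Centring on the median moved the median difference of all genes in the JD549.Ki comparison with TEM4-18 from 0.06 to -0.15. It gave 5 listed genes called between PC-3 and TEM4-18 sublines and 10 between JD549.Ki and TEM4-18 sublines, and quantile normalization gave 2 in the former. The former count was 0 with no filter, with GS689.Li and GS694.LAd averaged, and with the TEM4-18 duplicates averaged. These averages left 1 and 1 listed gene called against TEM4-18 in the JD549.Ki pair, and 1 and 3 against the TEM4-18 sublines. The counts of all genes called were 4 with no offset and 5 with median centring for all in vivo sublines, 161 and 35 with the 2 averages for PC-3 sublines against TEM4-18, 171 and 207 against TEM4-18 sublines, and 2 for TEM4-18 sublines with the duplicates averaged. Leaving out 1 array at a time gave 0 to 14, 31 to 940, 2 to 145 and 152 to 1143 genes in the 4 comparisons, and 0 to 4 listed genes in PC-3 sublines against TEM4-18, 0 to 6 against TEM4-18 sublines, 1 to 8 and 1 to 11 in the JD549.Ki comparisons, and 0 elsewhere. Single sublines past 2-fold became 0 for GS683.LALN with an offset equal to the overall median signal, and 1 each for GS689.Li and JD1203.Lu with the mean of the probe sets. No paired analysis was possible because the sublines have 1 array each and share no replicate numbers with TEM4-18.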
